A study of Homo sapiens with 18 samples.

Results

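The genes described here encode the receptors, docking proteins, adaptor and secreted binding proteins that open insulin and insulin-like growth factor (IGF) signalling: IGF1R, INSR, IGF2R, IRS1, IRS2, GRB10, IGFBP2, IGFBP3, IGFBP4 and IGFBP5. They were found in the deposited gene tables by symbol, on rows with an Ensembl gene identifier, and these 10 genes are 10 of 34912 in all. The cells were LNCaP, a prostate cancer line that depends on androgen. All groups were transfected with a pool of siRNAs (non-targeting control, against NFYA or against KLF5), at a time relative to treatment that the labels leave unclear. All spent 48 h in 5% charcoal-stripped serum, which is depleted of steroids, before 24 h with 10 nM R1881, a synthetic androgen, or with vehicle (96% ethanol). The groups were therefore control vehicle, control R1881, siNFYA vehicle, siNFYA R1881 and siKLF5 R1881, each with 3 libraries, and siKLF5 vehicle with 2, because 1 of the 18 labelled samples was not used here. The study asks which transcription factors regulate the metabolism of these cells. All libraries came from 1 cell line, and the labels do not state whether replicate libraries are from different cultures; the p-values measure only how these libraries spread, which may be technical.

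Insulin and the IGFs bind receptor tyrosine kinases, the insulin receptor and the IGF1 receptor, which phosphorylate the docking proteins IRS1 and IRS2 and through them engage PI3K, AKT and mTORC1, and through SHC and RAS the MAPK kinases. IGF2R binds IGF2 and carries it to lysosomes without such signalling, GRB10 binds the activated receptors and dampens them, and IGF-binding proteins hold the ligands outside the cell. In prostate the pathway is known for supporting growth and survival, and the androgen receptor and IGF1R are known to influence each other.

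Library totals ran from 4416653 to 6872421 estimated counts. NFYA was lower by 0.62 on the log2 scale in both siNFYA comparisons (SE 0.0631 in vehicle and 0.0615 in R1881, edgeR adjusted p = 4.06e-07 and 2.37e-07). KLF5 differed by -1.15 in siKLF5 with R1881 (SE 0.163, adjusted p = 0.000229) and by -1.08 in vehicle (SE 0.346, adjusted p = 0.149), where its level was low (4.16 ± 0.835 CPM, normalised counts scaled to library size, in control vehicle, SD, n = 3). All 8 luminal prostate markers had counts in every library, whereas the basal keratin KRT5 was listed at 0 and the 4 basal markers summed to at most 0.468 CPM. Stromal markers summed to 11.8 to 23.3 CPM with DES at 0, and blood and endothelial markers to 8.53 to 16.2 CPM with CD3E, HBB and CDH5 at 0. Some markers moved with R1881 under control siRNA: the summed luminal level, which includes known androgen targets, was 2905 to 3016 CPM in vehicle and 15230 to 15510 CPM in R1881, the stromal sum 17.9 to 19.0 and 12.7 to 16.3 CPM, and the blood and endothelial sum 13.3 to 14.3 and 10.0 to 12.0 CPM. Single genes went both ways, with mean CPM from 8.71 to 3.11 for VWF and 2.39 to 0.126 for COL3A1, and from 4.50 to 7.49 for CD68 and 2.79 to 5.45 for ACTA2; their part in the R1881 results was not tested. One library stood apart: siNFYA vehicle replicate 3 had 2.85% of its counts on 1 non-coding gene, AC010970.1, and its counts differed from those of the other siNFYA vehicle libraries by a chi-square of 9.94 and 13.2 per degree of freedom, against 1.32 to 3.47 for all other pairs of replicates. The main values below include it, and values without it are given for some of the comparisons that use it.

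The transcripts of 8 of the 10 genes passed the filter on low counts. IGFBP4 had 0 to 2 counts and IGFBP5 0 to 3 counts in a library, at or under the limit of 3 counts set for detection, so no fold is given for either. IGFBP4, which binds IGFs and is cleaved by PAPPA, was at 0 counts in 13 of the 17 libraries. IGFBP5, a binding protein that also attaches to matrix, had 10 counts in all 8 vehicle libraries together and was listed at 0 in all 9 R1881 libraries. It did not pass the filter, so this difference was not tested.

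The androgen changed most of these genes. Under control siRNA 5 of the 8 tested rose with R1881 (IGF1R, IRS2, IGFBP3, IRS1, IGF2R), 2 fell (GRB10, IGFBP2) and INSR did not pass, where edgeR's quasi-likelihood test with Benjamini-Hochberg adjustment over all genes called 62.9% of all 12601 genes tested, 32.1% higher and 30.8% lower. The median log2 change of the 8 genes was 0.807, against -0.0102 over all genes tested. The genes were chosen with earlier results of these data known, so this difference is a description of the list chosen. With siNFYA 5 rose and 2 fell, where 62.1% of all genes passed (31.2% higher and 31% lower). With siKLF5 5 rose and 3 fell, where 59.2% passed (30.7% higher and 28.4% lower). The libraries with and without R1881 did not overlap for 7 of the 10 genes under control siRNA and for 8 of 10 under each knockdown, the eighth being IGFBP5 with siNFYA, at counts within the detection limit, and INSR with siKLF5. How many of all genes had no such overlap was not counted, so these numbers are a description without a background. Without siNFYA vehicle replicate 3 the same number, 7 of the 8, passed in the siNFYA arm, with changes from -2.33 for GRB10 to 4.32 for IGF1R.

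**Figure D1:**
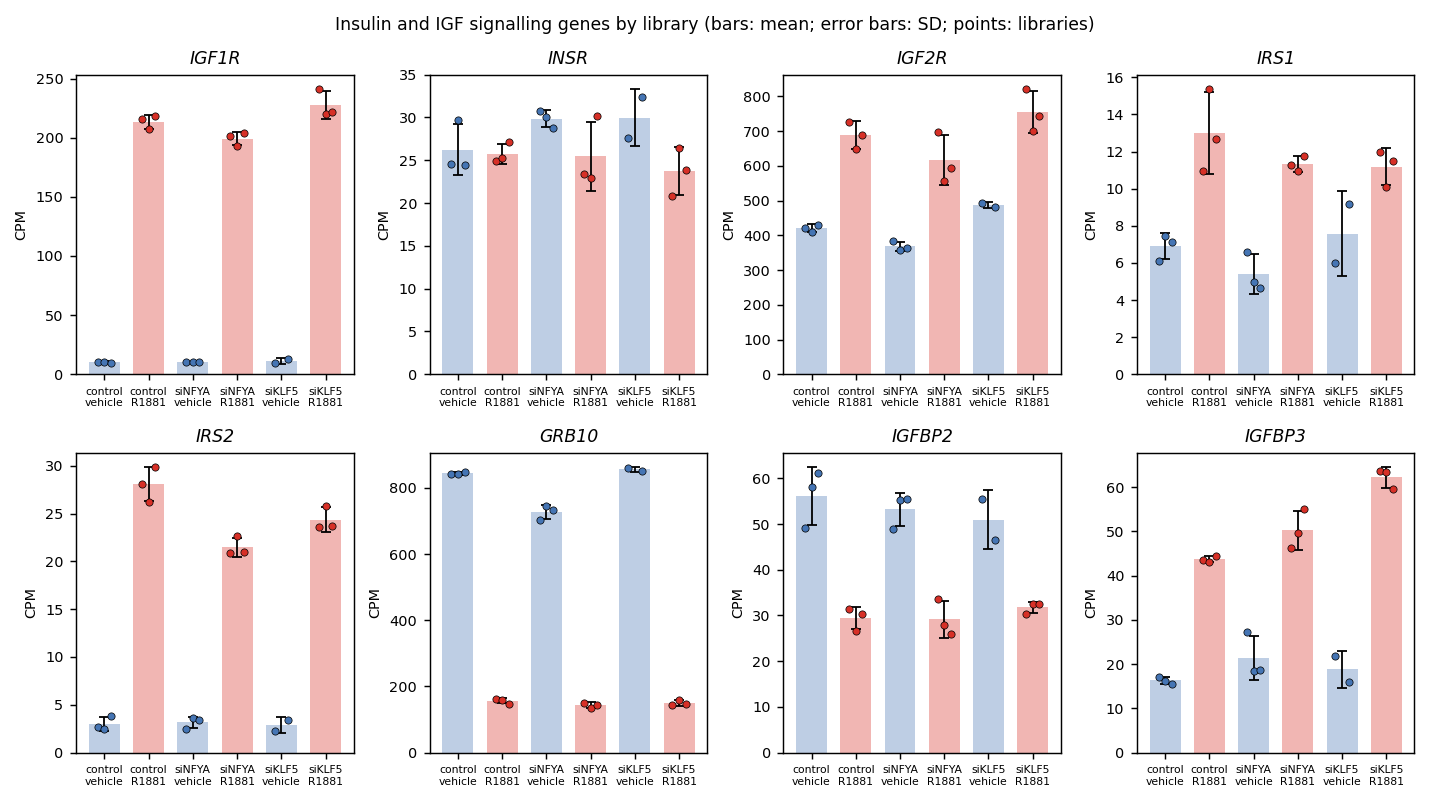
Normalised counts (CPM, linear axes starting at 0) of the 8 tested genes in the 17 libraries; points are libraries, bars group means and error bars SD, blue for vehicle and red for R1881. IGF1R and IRS2 are high in every R1881 library, GRB10 and IGFBP2 are high in every vehicle library, and INSR stays between 20.8 and 32.4 CPM throughout.

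IGF1R, the receptor kinase for IGF1 and IGF2 (ENSG00000140443; GRCh38 chromosome 15, 98648539 to 98964530, plus strand), had the largest change of the 8. Its CPM in control vehicle was 10.7, 10.6 and 9.49, and in control R1881 215.5, 207.0 and 218.2. With siNFYA it was 10.0, 10.1 and 10.2 in vehicle and 201.1, 193.2 and 203.7 in R1881. With siKLF5 it was 9.16 and 12.6 in vehicle and 241.4, 220.2 and 221.6 in R1881. Every R1881 library lay far above every vehicle library, with no overlap in any siRNA arm. The ratio of group means was 20.8-fold under control siRNA, 19.8-fold with siNFYA and 20.9-fold with siKLF5. The fitted log2 changes were 4.37 (SE 0.0665, adjusted p = 7.94e-26), 4.30 (SE 0.0721, adjusted p = 7.80e-25) and 4.39 (SE 0.0902, adjusted p = 2.11e-21).

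On the length-scaled TPM scale, which divides by transcript length, the IGF1R change was smaller, with a log2(TPM + 0.5) difference of 2.85 under control siRNA (limma adjusted p = 1.62e-07), 3.38 with siNFYA and 3.69 with siKLF5. The mean level was 4.67 ± 0.0757 TPM in control vehicle and 36.9 ± 2.22 TPM in control R1881 (SD, n = 3). TPM weights short transcript models more heavily than counts do. Protein-coding models held 38.0% ± 18.7 of IGF1R TPM in control vehicle and 73.3% ± 7.13 in control R1881 (SD, n = 3), and without overlap IGF1R-201, the 11803-base main coding model, held 15.5 to 27.9% and 52.0 to 53.8%. The ranges of IGF1R-201 overlapped in the other arms, 0 to 60.7% and 31.9 to 45.5% with siNFYA and 32.3 to 53.0% and 39.3 to 57.3% with siKLF5. So did the protein-coding shares, 35.4 to 66.1% and 61.15 to 80.7% with siNFYA and 55.4 to 70.6% and 66.1 to 79.6% with siKLF5. Over all libraries IGF1R-201 held 44.5%, the coding IGF1R-206 15.1% and the retained-intron model IGF1R-210 (2280 bases) 10.2%. The vehicle shares rest on few counts per library over 17 annotated transcripts: 64 to 74 in control, 48.2 to 59.0 with siNFYA and 69.0 to 92.0 with siKLF5.

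INSR, the insulin receptor (ENSG00000171105; chromosome 19, 7112255 to 7294034, minus strand), did not pass under control siRNA. Its CPM was 24.6, 29.7 and 24.5 in control vehicle and 24.9, 25.3 and 27.1 in control R1881, and these ranges overlap. The log2 change was -0.03 (SE 0.107, adjusted p = 0.815). With siNFYA the libraries had 30.7, 30.0 and 28.8 CPM in vehicle and 23.4, 23.0 and 30.1 in R1881, and the change was -0.24 (SE 0.109, adjusted p = 0.0556), or -0.37 (adjusted p = 0.00709) without siNFYA R1881 replicate 3. With siKLF5 they had 27.6 and 32.4 CPM in vehicle and 20.8, 26.4 and 23.9 in R1881, without overlap, and INSR fell by 0.34 (SE 0.116, adjusted p = 0.0160). That call was lost with DESeq2 (adjusted p = 0.0652), on the TPM scale and without siKLF5 R1881 replicate 1 (adjusted p = 0.0942). It was also lost without siKLF5 vehicle replicate 3, where the change was -0.22. Leaving out 1 of the 2 siKLF5 vehicle libraries leaves an arm of 1, which is assumed to vary like the other groups, here and below. The interactions of knockdown with R1881 were -0.21 (SE 0.153, adjusted p = 0.639) and -0.29 (SE 0.158, adjusted p = 0.787), so the response was not shown to differ between arms. With scaling to library totals in place of TMM, which shifts the median log2 change of all genes from -0.0102 to -0.247, INSR passed under control siRNA as lower (-0.27, adjusted p = 0.0302).

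INSR makes 2 main coding forms, which differ by exon 11: the form that holds it is known as isoform B and binds insulin, and the form that skips it is isoform A, which also binds IGF2 well. Exon 11 of 22 lies at chr19:7150497-7150532 (GRCh38, minus strand) within the coding sequence. It is shown because the deposited transcript values separate the forms on it. Read 5′ to 3′ on the transcript with 20 bases of each neighbouring exon, capitals mark the 36 bases of exon 11.
INSR with exon 11: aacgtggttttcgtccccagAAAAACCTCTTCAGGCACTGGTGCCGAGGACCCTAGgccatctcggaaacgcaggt
INSR without exon 11: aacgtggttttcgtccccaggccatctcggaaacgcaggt
The model with the exon (INSR-201, 4721 bases) held 43.6%, 56.4% and 46.4% of the TPM of the 2 forms in control vehicle and 51.4%, 42.5% and 46.4% in control R1881. With siNFYA it held 30.1%, 39.8% and 49.2% in vehicle and 45.5%, 43.9% and 51.2% in R1881. With siKLF5 it held 23.6% and 31.6% in vehicle and 33.5%, 40.4% and 47.6% in R1881. The siKLF5 vehicle libraries were the lowest group, below both control groups, and the siKLF5 R1881 libraries lay above them without overlap. The mean went from 48.8% in vehicle to 46.8% in R1881 under control siRNA, from 39.7% to 46.9% with siNFYA and from 27.6% to 40.5% with siKLF5. Pooled means weigh the arms unequally, as siKLF5 has 2 vehicle and 3 R1881 libraries. Pooled over the 3 arms the share was 4.64 percentage points higher with R1881 (44.7% over 9 libraries against 40.1% over 8), which did not pass a two-sided exact permutation test within arms (p = 0.217, 4000 arrangements). Without control vehicle replicate 2 the difference was 6.97 points (exact permutation p = 0.0485). The 2 models also differ in length and at the 3′ end (INSR-202, without the exon, has 8954 bases), and the share rests on 21.4 to 82.8 counts for INSR-201 and 69.4 to 190.7 for INSR-202 in a library, so it describes the models and not the exon alone.

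IGF2R, the lysosomal carrier of IGF2 and mannose 6-phosphate tagged enzymes (ENSG00000197081; chromosome 6, 159969099 to 160113507, plus strand), rose by a modest amount in all arms. Its CPM was 422.5, 409.9 and 430.4 in control vehicle and 727.2, 647.5 and 689.7 in control R1881, a 1.63-fold difference. The values were 383.9, 357.3 and 363.2 rising to 697.2, 557.1 and 594.4 with siNFYA, and 494.4 and 481.4 rising to 821.9, 701.7 and 742.9 with siKLF5. No R1881 library overlapped the vehicle libraries of its arm. The log2 changes were 0.71 (SE 0.0560, adjusted p = 4.71e-11), 0.74 (SE 0.0577, adjusted p = 3.79e-11) and 0.63 (SE 0.0540, adjusted p = 7.72e-10).

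A short annotated transcript took a larger share of IGF2R TPM with R1881. IGF2R-202 is a processed transcript of 597 bases in 5 exons, from 160096447 to 160113507, that shares the 3′ part of the gene. It held 14.0%, 16.9% and 8.47% of IGF2R TPM in control vehicle and 25.5%, 36.6% and 36.6% in control R1881. The share was 6.46 to 10.1% and then 23.4 to 30.6% with siNFYA, and 7.60 to 13.1% and then 31.5 to 34.3% with siKLF5. R1881 libraries were above vehicle libraries in every arm without overlap; this feature was picked out after its values were seen and was not tested. In counts it is a small part of the gene, 0.265 to 0.815% in vehicle libraries and 1.20 to 2.11% in R1881 libraries (5.69 to 23.3 and 37.4 to 79.2 counts).

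**Figure D2:**
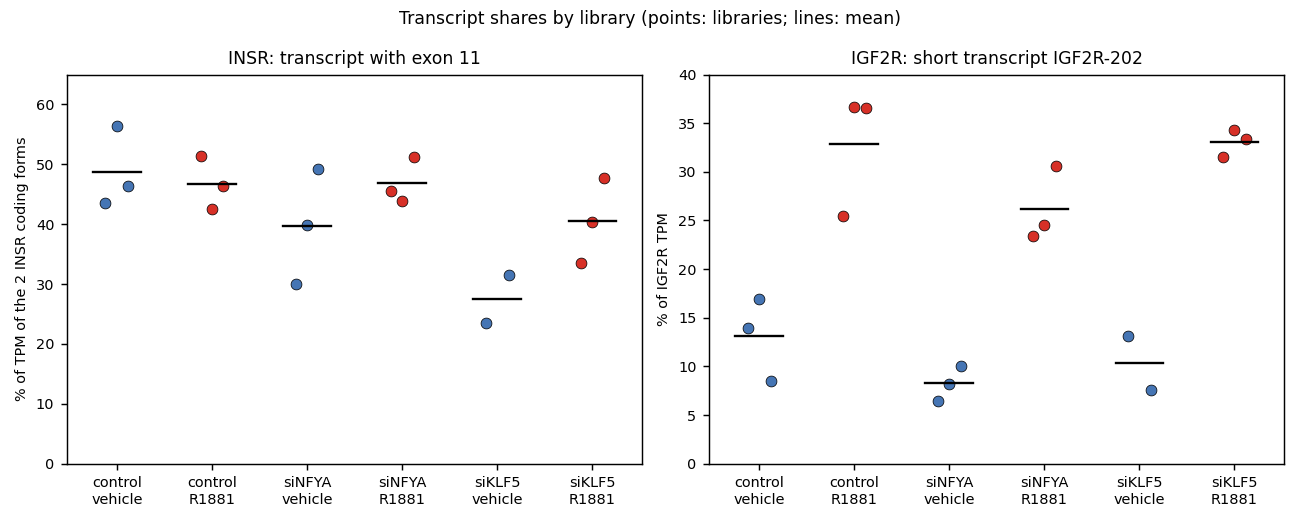
Share of the INSR model with exon 11 in the TPM of the 2 INSR coding forms (left) and of IGF2R-202 in IGF2R TPM (right), in percent, by group; points are libraries and lines group means. INSR shares of R1881 and vehicle overlap under control siRNA, the lowest value is 23.6% in siKLF5 vehicle, and IGF2R-202 shares are at most 16.9% in vehicle and at least 23.4% in R1881.

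IRS2, a docking protein that links both receptors to PI3K (ENSG00000185950; chromosome 13, 109752698 to 109786568, minus strand), was near the lower end of expression without androgen. Its CPM was 2.68, 2.44 and 3.85 in control vehicle and 28.1, 26.3 and 29.8 in control R1881. With siNFYA it was 2.50, 3.58 and 3.38 in vehicle and 20.9, 22.6 and 21.0 in R1881, and with siKLF5 2.26 and 3.43 in vehicle and 23.6, 25.8 and 23.7 in R1881. All vehicle libraries were under 4 CPM and all R1881 libraries above 20 CPM. The ratio of means was 9.39-fold, 6.80-fold and 8.57-fold for control siRNA, siNFYA and siKLF5, and the log2 changes were 3.22 (SE 0.151, adjusted p = 1.12e-15), 2.76 (SE 0.168, adjusted p = 2.57e-13) and 3.10 (SE 0.184, adjusted p = 1.05e-12). On the log2(TPM + 0.5) scale the control change was 2.32 (limma adjusted p = 4.93e-07), where the pseudocount is close to the vehicle level of 0.594 TPM.

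IRS1, the other main docking protein (ENSG00000169047; chromosome 2, 226731317 to 226799759, minus strand), rose less. Its CPM was 6.10, 7.45 and 7.11 in control vehicle and 10.95, 15.4 and 12.7 in control R1881. It was 6.61, 4.95 and 4.65 and then 11.3, 10.9 and 11.8 with siNFYA, and 5.97 and 9.19 and then 12.0, 10.1 and 11.5 with siKLF5. The groups with and without R1881 did not overlap in any arm. The log2 changes were 0.91 (SE 0.159, adjusted p = 2.35e-05), 1.05 (SE 0.181, adjusted p = 1.94e-05) and 0.56 (SE 0.198, adjusted p = 0.0192). The control call was lost on the TPM scale (0.76, adjusted p = 0.0655), where a 506-base model took 0 to 73.5% of IRS1 TPM by library. The siKLF5 call was lost with DESeq2 (adjusted p = 0.0745), with library totals (adjusted p = 0.154), on the TPM scale and without siKLF5 R1881 replicate 1 (adjusted p = 0.0638). It was also lost without siKLF5 vehicle replicate 2, where the change was 0.27.

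GRB10, the adaptor that inhibits both receptors and is stabilised by mTORC1 (ENSG00000106070; chromosome 7, 50590063 to 50793462, minus strand), was the most abundant of these genes without androgen and the one that fell furthest. Its CPM was 843.1, 840.7 and 847.9 in control vehicle and 162.7, 159.6 and 147.8 in control R1881. With siNFYA it was 704.0, 745.7 and 731.8 and then 151.1, 134.0 and 143.0, and with siKLF5 860.6 and 850.6 and then 143.9, 159.2 and 147.1. Every R1881 library was below every vehicle library by a wide margin. Vehicle means exceeded R1881 means 5.39-fold, 5.10-fold and 5.70-fold, and GRB10 fell by 2.43 (SE 0.0424, adjusted p = 1.44e-24), 2.36 (SE 0.0435, adjusted p = 5.03e-24) and 2.51 (SE 0.0442, adjusted p = 1.24e-22) on the log2 scale.

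Of the binding proteins, IGFBP3, the main carrier of IGFs in blood (ENSG00000146674; chromosome 7, 45912245 to 45921874, minus strand), rose. Its CPM was 17.1, 16.2 and 15.6 in control vehicle and 43.6, 43.1 and 44.5 in control R1881. It was 27.2, 18.4 and 18.6 and then 46.2, 49.7 and 54.9 with siNFYA, and 21.8 and 15.9 and then 63.6, 63.5 and 59.5 with siKLF5. R1881 libraries were higher in each arm without overlap, and those with siKLF5 were the highest of all. The log2 changes were 1.42 (SE 0.113, adjusted p = 4.81e-11), 1.22 (SE 0.110, adjusted p = 5.90e-10) and 1.72 (SE 0.0997, adjusted p = 6.57e-13).

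IGFBP2, a secreted binding protein that prefers IGF2 (ENSG00000115457; chromosome 2, 216632828 to 216664436, plus strand), fell. Its CPM was 49.1, 58.2 and 61.2 in control vehicle and 31.3, 26.6 and 30.2 in control R1881. With siNFYA the range was 49.0 to 55.4 in vehicle and 25.9 to 33.5 in R1881, and with siKLF5 46.5 to 55.5 and 30.4 to 32.6. All vehicle libraries were above all R1881 libraries. The log2 changes were -0.94 (SE 0.0973, adjusted p = 6.57e-09), -0.87 (SE 0.102, adjusted p = 5.98e-08) and -0.69 (SE 0.104, adjusted p = 5.87e-06).

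The order of the genes by length-scaled level therefore differed between treatments. In control vehicle the mean TPM was 395.3 for GRB10, 77.5 for IGFBP2, 76.8 for IGF2R, 12.8 for IGFBP3, 6.18 for INSR, 4.67 for IGF1R, 1.69 for IRS1 and 0.594 for IRS2, and of these neighbours only IGFBP2 and IGF2R overlapped between libraries. In control R1881 the order was IGF2R with 132.0 TPM, GRB10 with 66.0, IGF1R with 36.9, IGFBP2 with 35.7, IGFBP3 with 29.2, INSR with 6.95, IRS2 with 4.94 and IRS1 with 3.26, and only IGF1R and IGFBP2 overlapped. INSR was above IGF1R in each control vehicle library and below it in each control R1881 library. GRB10 was also first in both other vehicle groups (347.0 TPM with siNFYA and 416.5 with siKLF5), and IGF2R first in both other R1881 groups (110.6 and 154.1 TPM). IGF2R TPM includes short models: over all libraries the full-length IGF2R-201 held 55.0% of it, IGF2R-202 24.5% and the 762-base IGF2R-203 20.1%. The models that led for the other genes were GRB10-201 (26.3% of GRB10 TPM) with GRB10-204 (19.9%), IGFBP2-201 (83.6%) with IGFBP2-204 (14.9%), and IGFBP3-201 (41.7%) with IGFBP3-210 (29.1%) and IGFBP3-203 (24.4%), all protein-coding.

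**Figure D3:**
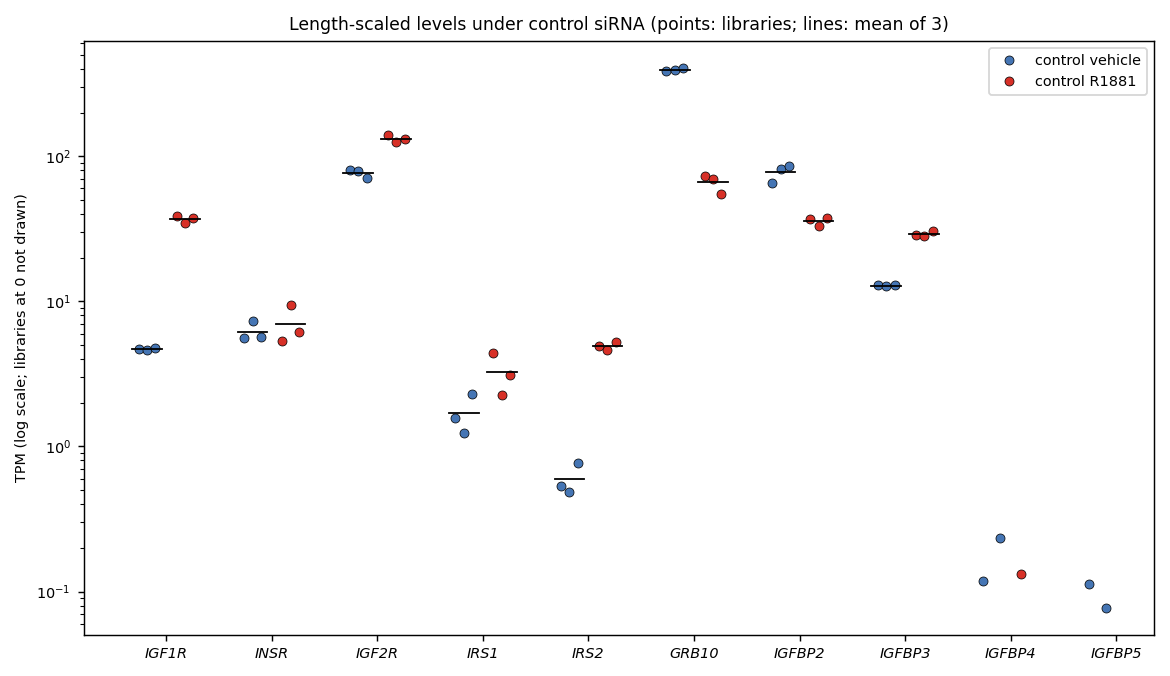
Length-scaled levels (TPM, log axis) of the 10 genes in the control vehicle (blue) and control R1881 (red) libraries; points are libraries, lines means of 3, and libraries at 0 are not drawn. GRB10 is at the top without androgen (395.3 TPM), IGF2R with it (132.0 TPM), and IGFBP4 and IGFBP5 stay under 0.25 TPM.

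Knockdown of NFYA moved few of these genes, and by small amounts. In vehicle 1 of the 8 tested rose (IGFBP3) and 2 fell (GRB10, IGF2R), where 13.5% of all genes passed (6.67% higher and 6.79% lower). Among these, GRB10 was 704.0 to 745.7 CPM with siNFYA against 840.7 to 847.9 in control, without overlap, a log2 change of -0.21 (SE 0.0366, edgeR adjusted p = 0.000488) that was -0.23 (adjusted p = 0.000524) without the library that stands apart and did not pass on the TPM scale (adjusted p = 0.281). IGF2R was 357.3 to 383.9 CPM against 409.9 to 430.4, without overlap, a change of -0.18 (SE 0.0580, adjusted p = 0.0351). This change did not pass without siNFYA vehicle replicate 3 (-0.19, adjusted p = 0.0552), without siNFYA vehicle replicate 2 or any 1 of the control vehicle libraries. Nor did it pass with DESeq2, on the TPM scale or with all 17 libraries in 1 fit. IGFBP3 was 18.4 to 27.2 CPM against 15.6 to 17.1, and the change of 0.41 (SE 0.129, adjusted p = 0.0365) rested on replicate 1, without which it was 0.19 (adjusted p = 0.392). Without siNFYA vehicle replicate 3 it was 0.47 (adjusted p = 0.0221), and the call was lost with DESeq2, on the TPM scale and without any 1 of the control vehicle libraries.

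With R1881, siNFYA went with a lower level of 1 of the 8, IRS2, where 5.96% of all genes passed (2.63% higher and 3.33% lower). IRS2 was 20.9 to 22.6 CPM with siNFYA against 26.3 to 29.8 in control, without overlap, and fell by 0.38 (SE 0.109, adjusted p = 0.0392). The call was lost with DESeq2, on the TPM scale and when any 1 of the 6 libraries was left out (adjusted p 0.0530 to 0.154). In vehicle the same comparison gave 0.09 (SE 0.243, adjusted p = 0.879), and the interaction was -0.46 (SE 0.268, adjusted p = 0.566). Of the 8 tested genes 5 had an unadjusted p under 0.05 in this comparison, as did 19.0% of all genes, and IGF1R, IGF2R, GRB10 and IGFBP3 did not pass after adjustment. Without siNFYA R1881 replicate 1 IGF2R passed (-0.25, adjusted p = 0.0014).

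NFYA belongs to the factor that binds CCAAT, and the IRS2 promoter is shown because it was the one of the members' entries with a pair of these motifs. These are the 250 bases before the RefSeq start (chr13:109786584-109786833, GRCh38.p14, minus strand), written 5′ to 3′, with the motif in capitals as CCAAT or, on the other strand, ATTGG.
IRS2 promoter: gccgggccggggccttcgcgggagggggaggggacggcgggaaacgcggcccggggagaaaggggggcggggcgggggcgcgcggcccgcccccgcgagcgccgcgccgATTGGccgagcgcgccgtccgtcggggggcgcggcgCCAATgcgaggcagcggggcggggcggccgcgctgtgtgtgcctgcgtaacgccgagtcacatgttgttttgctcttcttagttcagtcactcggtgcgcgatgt
The motifs begin 141 and 105 bases before the RefSeq start, and the only IRS2 model, with 100% of IRS2 TPM, starts within 100 bases of it. Over the 16 RefSeq promoters of the 10 genes (300 bases each, 250 before to 50 after the start), 3 held CCAAT on either strand, against 34.6% of 35116 promoters of that length. The GC box GGGCGG, a motif that KLF and SP factors bind, was in 11 of 16 against 45.0%, and the androgen receptor half-site AGAACA in 2 of 16 against 14.8%. GRB10 and IGFBP2 have several entries among the 16, and a match describes letters in the window only.

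Knockdown of KLF5 called 1 of the 8 with R1881, IGFBP3, where 1.38% of all genes passed (0.832% higher and 0.55% lower). IGFBP3 was 59.5 to 63.6 CPM with siKLF5 against 43.1 to 44.5 in control, without overlap, and rose by 0.52 (SE 0.0809, adjusted p = 0.000668). It passed without any 1 of the 6 libraries, and on the TPM scale its adjusted p was 0.0821. In vehicle the change was 0.21 (SE 0.121, adjusted p = 0.487), and the interaction of 0.31 (SE 0.145, unadjusted p = 0.0433) had an adjusted p of 0.731. None of the 8 passed with siKLF5 in vehicle by edgeR, where 1.32% of all genes passed (0.77% higher and 0.55% lower). There IGF2R was the 1 gene of the 8 with an unadjusted p under 0.05, as had 12.9% of all genes (0.21, SE 0.0539, adjusted p = 0.0501). It passed with DESeq2 (adjusted p = 0.0207), with library totals, with no filter and with only these groups in the fit. It did not pass on the TPM scale, with all 17 libraries in 1 fit or when any 1 control vehicle library was left out. Over the settings that kept every library of these groups its change ran from 0.11 to 0.22.

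Neither interaction of knockdown with R1881 called any of the 8 by edgeR, with 0 (siNFYA) and 1 (siKLF5) at an unadjusted p under 0.05, as 12.0% and 6.71% of all genes had, where 0.722% (0.333% higher and 0.389% lower) and 0.0157% of all genes passed, and DESeq2 called none. For IGF1R the interactions were -0.07 (SE 0.134) and 0.03 (SE 0.162), and for GRB10 0.08 (SE 0.0615) and -0.07 (SE 0.0616). The knockdown comparisons share their control libraries, so siNFYA and siKLF5 values are not independent of each other. The share of mitochondrial transcripts among counts averaged 1.89% (vehicle) and 1.38% (R1881) under control siRNA, 2.81% and 2.57% with siNFYA, and 2.71% and 2.49% with siKLF5. Retained-intron models held 4.20% and 3.96% of TPM in the control groups, 4.91% and 4.74% with siNFYA and 4.69% and 4.45% with siKLF5. Both move with the knockdowns, and their part in these results was not tested.

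**Figure D4:**
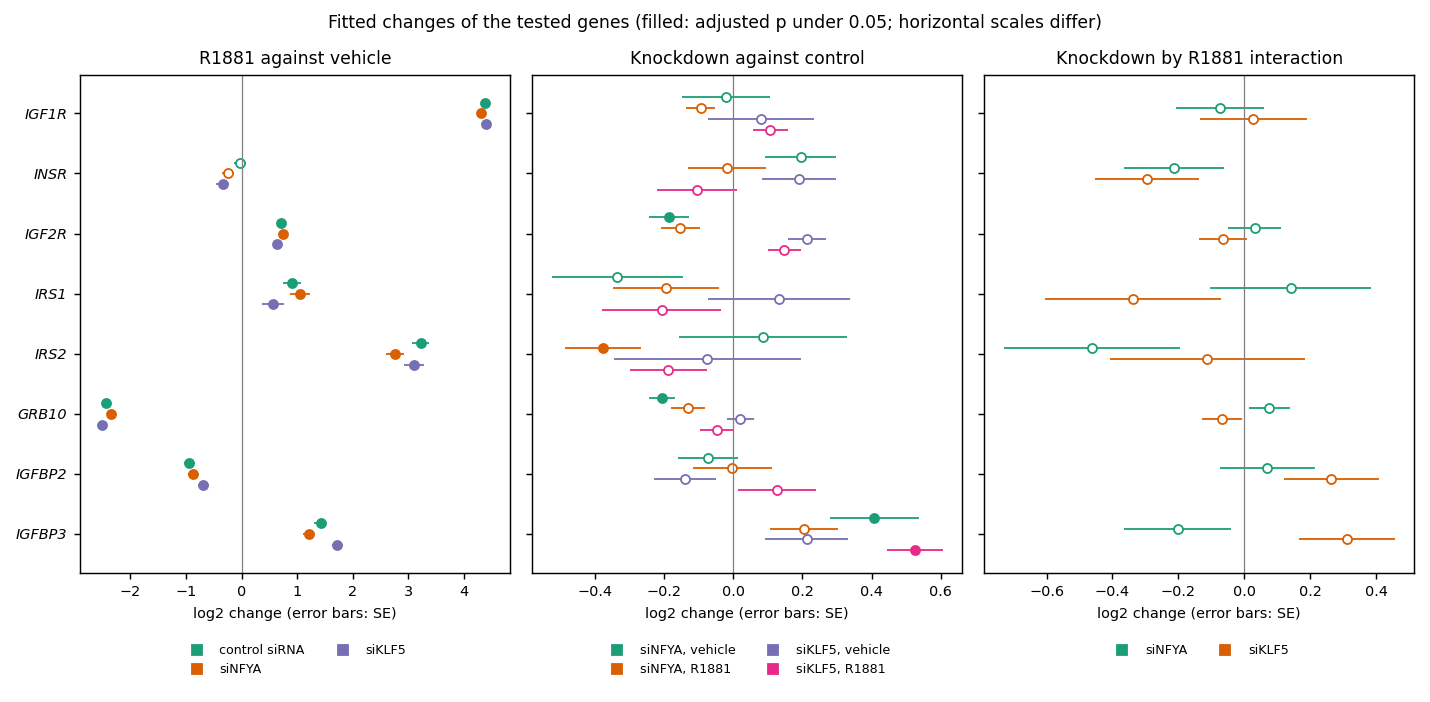
Fitted log2 changes (horizontal axes, scales differ between panels) with SE for the 8 tested genes in the 9 comparisons; filled points have an edgeR adjusted p under 0.05. The R1881 changes run from -2.51 (GRB10, siKLF5) to 4.39 (IGF1R, siKLF5), the knockdown changes stay within -0.38 and 0.52, and no interaction point is filled.

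The rest of the pathway was described with 81 further genes in 8 roles, of which 65 passed the filter. With R1881 under control siRNA 29 rose and 18 fell, where 62.9% of all genes passed, with a median log2 change of 0.133 against -0.0102 over all genes. These lists too were chosen with earlier results of these data known. With library totals in place of TMM the split was 19 higher and 29 lower, against 2481 higher and 6314 lower over all genes, so counts by direction depend on the scaling, while each gene named below as higher or lower in this comparison kept its direction and its call with library totals.

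The only ligand with enough counts was IGF1, and it rose. It had 1.66 ± 0.301 CPM in control vehicle and 7.81 ± 0.667 CPM in control R1881 (SD, n = 3), a log2 change of 2.21 (SE 0.242, adjusted p = 1.70e-08), with 2.76 under siNFYA and 2.53 under siKLF5. All of these are low levels, 10.0 to 13.8 counts per control vehicle library. Of the other binding proteins, proteases and the insulin-degrading enzyme, 3 of 10 were tested: the secreted protease HTRA1, which cleaves IGFBPs, fell by 2.06, and IDE, which degrades insulin, and STC2, which inhibits PAPPA, rose by 0.72 and 0.58.

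Among 16 tested adaptors and inhibitors close to the receptors 5 rose and 6 fell (3 and 10 with library totals). Over all genes tested 32.1% passed as higher and 30.8% as lower. SOCS2, a feedback inhibitor of growth hormone signalling, rose by 3.43, from 9.28 ± 1.32 to 100.4 ± 3.59 CPM (SD, n = 3). PTPN1, a phosphatase that inactivates the insulin receptor, rose by 0.97, and GRB14, a relative of GRB10, passed as lower, from 2.26 CPM (11 to 22 counts a library) to 0.508 CPM (2 to 3 counts), too few counts for a fold. GRB10 and GRB14, both inhibitory adaptors, were therefore lower with R1881 while SOCS2 and PTPN1 were higher.

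In the PI3K and AKT group 4 rose and 8 fell of 15 tested (2 and 9 with library totals), where 32.1% of all genes passed as higher and 30.8% as lower. PIK3IP1, which binds and restrains PI3K, fell by 2.05, the regulatory subunit PIK3R3 fell by 1.79, and TRIB3, a pseudokinase that binds AKT, rose by 0.94. The mTORC1 group, beside the same shares of all genes, had 7 higher and 2 lower of 14 tested (5 and 6 with library totals). MTOR, the kinase itself, rose by 1.67 from 69.4 ± 2.89 to 220.9 ± 8.37 CPM (SD, n = 3), its inhibitor DEPTOR fell by 1.64, and the S6 kinase gene RPS6KB2 rose by 0.78. These are named for the size of their change. Not every inhibitor of mTORC1 in this list was lower: DDIT4 had a higher mean CPM with R1881 under control siRNA, given in a later section.

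Of 6 tested genes for FOXO factors, GSK3 and AS160, 3 rose and none fell by edgeR (4 had an unadjusted p under 0.05, as did 66.0% of all genes), while with library totals 3 rose and 1 fell. For this list and the next, the shares of all genes that passed were 32.1% higher and 30.8% lower. TBC1D4, which encodes AS160 and controls glucose transporter traffic, rose by 2.23, and the transcription factors FOXO1 and FOXO3, which AKT inhibits, by 1.12 and 0.76. Of 9 RAS and MAPK genes 7 rose and 1 fell (3 and 2 with library totals), with the largest rises for MAP2K1 at 0.67, HRAS at 0.50 and NRAS at 0.38. The only IGF2 mRNA-binding protein tested, IGF2BP3, had a change of -0.23 and did not pass.

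**Figure D5:**
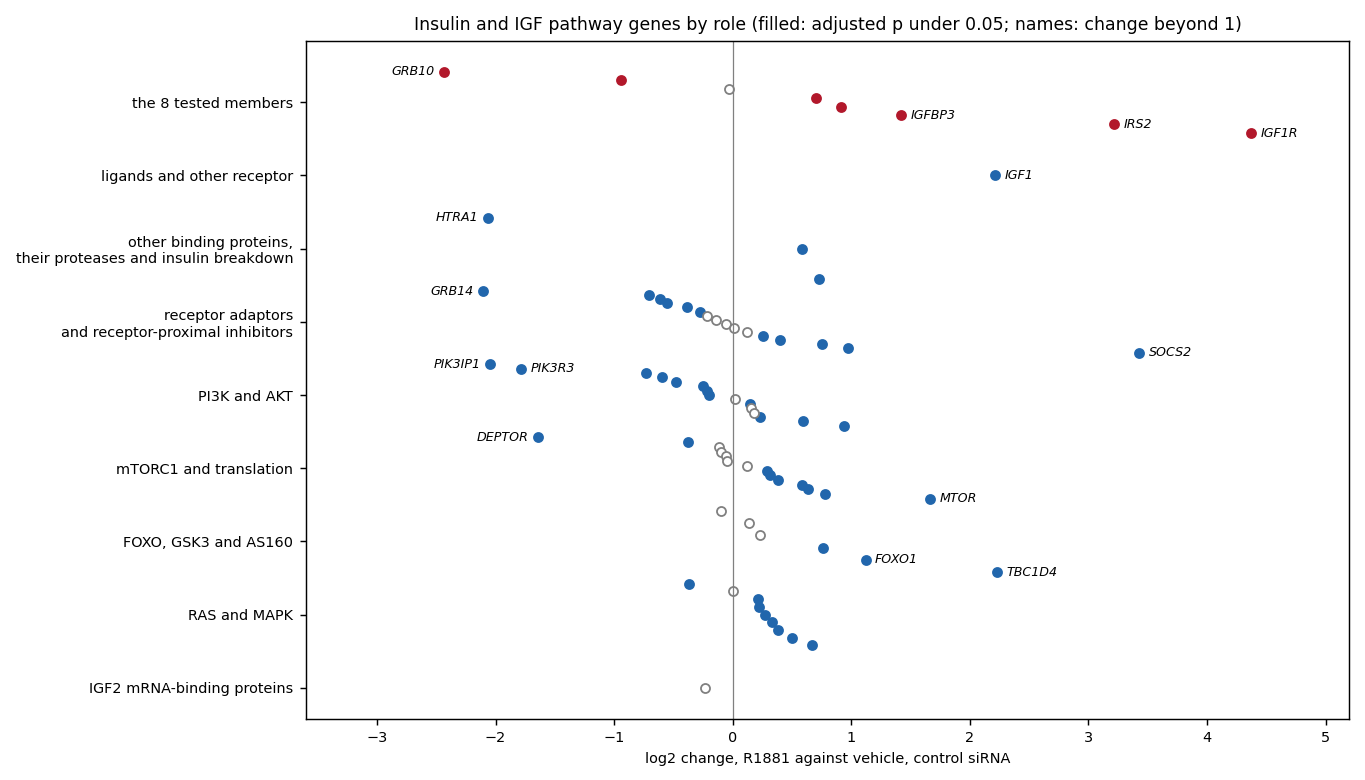
Log2 change with R1881 under control siRNA (horizontal axis) for the 8 tested members (red) and 65 other pathway genes (blue) by role; each point is a gene, filled where the edgeR adjusted p is under 0.05, and genes beyond a change of 1 are named. IGF1R (4.37), SOCS2 (3.43) and IRS2 (3.22) lie furthest to the right and GRB10 (-2.43) furthest to the left.

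With siNFYA in vehicle 6 of the 65 rose and 9 fell, where 13.5% of all genes passed. The docking protein gene GAB1 fell by 0.56 and the RAS activator gene SOS1 by 0.36, and TRIB3, DDIT4, an inhibitor of mTORC1, and the lipid phosphatase gene INPPL1 rose by 0.38, 0.37 and 0.35. Calls for GAB1 and SOS1 were lost when siNFYA vehicle replicate 1 was left out (adjusted p = 0.0610 and 0.0536), SOS1 also without siNFYA vehicle replicate 2 or control vehicle replicate 2, and all 5 passed without siNFYA vehicle replicate 3. SOS1 was also lost with DESeq2 (adjusted p = 0.0701), and on the TPM scale SOS1 (-0.02, adjusted p = 0.981), GAB1 (adjusted p = 0.494) and INPPL1 (adjusted p = 0.218) were lost. With siNFYA in R1881 1 rose and 5 fell, where 5.96% passed. PIK3R1, the main regulatory subunit of PI3K, was 104.2 to 109.0 CPM against 143.8 to 148.8 in control and fell by 0.45 (SE 0.0629, adjusted p = 5.72e-05), and INPPL1 rose by 0.40. The INPPL1 call was lost on the TPM scale (limma adjusted p = 0.323). TBC1D4 (-0.22), GSK3B (-0.17) and EIF4EBP2 (-0.16) passed by edgeR, and each was lost with DESeq2 (adjusted p = 0.186, 0.113 and 0.0978). Each was also lost on the TPM scale and with only the groups compared. Of 6 fits with 1 library left out, TBC1D4 was lost in 5, GSK3B in 6 and EIF4EBP2 in 4. With siKLF5 none of the 66 tested passed by edgeR in either treatment, where 1.32% and 1.38% of all genes passed. In vehicle 8 and in R1881 5 had an unadjusted p under 0.05, as did 12.9% and 12.5% of all genes, so these counts are near or under the background.

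Over all 17 libraries the protein-coding genes whose log2 CPM followed each member most closely were found among 12352 genes by Pearson's r, given as a description since the treatment groups set most of it. They were NCAPD3 (0.999) and LIMCH1 (0.999) for IGF1R, WNT7B (0.995) and TMEM79 (0.994) for IRS2, and BARD1 (0.999) and FAM198B (0.998) for GRB10. For IGF2R they were AHNAK (0.979) and LATS2 (0.975), for IRS1 UBR3 (0.951) and LRRC41 (0.947), for IGFBP2 BID (0.977) and PPA2 (0.972), and for IGFBP3 EML2 (0.978) and TSC2 (0.978), the last an inhibitor of mTORC1. INSR had the loosest match, with NCEH1 (0.845) and SSTR2 (0.788).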

How the data were processed

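RNA was purified with a column kit and made into strand-specific libraries, per the labels; whether the counting used strand is not given in the sources used here. FastQC, Trimmomatic, kallisto, DESeq2 and GRCh38 are named in the submitters' processing notes. In the deposited gene tables the values are estimated counts, and the authors' joined tables hold count, TPM and an unnamed number (other), not used, per gene and transcript. Control columns are identical in the control and siNFYA table (12 libraries) and the control and siKLF5 table (11).

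Estimated counts were rounded and each table fitted with edgeR 4.0.16 (R 4.3.3; TMM, filterByExpr, quasi-likelihood F test, 1 coefficient per group, 9 comparisons). P-values were adjusted over all genes of a table (12601 and 12733), with calls at adjusted p under 0.05. SE is the change divided by the root of F. Printed CPM use TMM over all 17 libraries, so ratios differ slightly from fitted changes. Alternatives were DESeq2 1.42.0, other scaling, no filter, limma 3.58.1 on log2(TPM + 0.5), other sample sets and leaving out each library; scripts were tested on simulated data. Transcripts and coordinates come from GENCODE v29 (GRCh38), promoters from RefSeq (GRCh38.p14). Genes are named by rule: the 10 members, per role up to 3 largest changes with R1881 under control siRNA, per knockdown comparison up to 5, and 2 most alike genes per member. Some items are not reported here. Members and lists were chosen with earlier results of these data known. The exact permutation test was run in Python 3.11.15 with NumPy 2.4.6.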

Additional observations from a re-analysis of the deposited data

Results flagged for a closer look

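The response to R1881 differed between siNFYA and control siRNA for 3 of the 65 other pathway genes tested, by the interaction term in edgeR, where 0.722% of all genes passed; with 1 control group in common, these are not independent of the siNFYA comparisons above.

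DDIT4, an inhibitor of mTORC1, had an interaction of -0.48 (SE 0.0703, adjusted p = 0.000731). It was 150.0 ± 4.38 CPM in control vehicle and 196.3 ± 15.4 in control R1881, and 192.3 ± 6.64 and 181.0 ± 5.62 with siNFYA (SD, n = 3). TRIB3, which binds AKT, had an interaction of -0.45 (SE 0.0871, adjusted p = 0.0105), with 57.0 ± 2.24 and 109.6 ± 8.13 CPM under control siRNA and 73.5 ± 2.94 and 103.3 ± 3.85 CPM with siNFYA (SD, n = 3). It did not pass with all 17 libraries in 1 fit (adjusted p = 0.0876). STC2, an inhibitor of the IGFBP protease PAPPA, had an interaction of -0.40 (SE 0.0888, adjusted p = 0.0301), with 77.7 ± 3.24 and 116.8 ± 10.9 CPM under control siRNA and 93.1 ± 2.74 and 106.4 ± 5.80 CPM with siNFYA (SD, n = 3). The STC2 call was lost when any 1 of 7 libraries was left out. Without siNFYA vehicle replicate 3, which stands apart, the interactions were -0.46 for DDIT4 (adjusted p = 0.00183), -0.44 for TRIB3 (adjusted p = 0.0173) and -0.38 for STC2 (adjusted p = 0.0531), so that the STC2 call was lost. On the log2(TPM + 0.5) scale none of the 3 passed (adjusted p = 0.0646, 0.147 and 0.793 for DDIT4, TRIB3 and STC2). With siKLF5 the same interactions were -0.09, -0.10 and 0.00 (SE 0.0765, 0.132 and 0.0936) and did not pass.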

How the results depend on the processing

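Over all comparisons and alternatives run, the 72 values of the 8 tested genes gave 992 recomputed values, of which 910 kept their direction and side of the threshold, 34 lost a call, 10 gained one and 38 changed sign, none of those past the threshold (lowest adjusted p 0.184). For 32 values of other named pathway genes the numbers were 431, 387 and 44 lost. Of the calls lost or gained for the 8 genes, 13 were in the R1881 comparisons (INSR and IRS1) and 31 in the knockdown comparisons. The number of genes called with R1881 stayed within 1.5 times (6 to 8 of the 8). Why calls were lost or gained was not tested, and fits with 1 library left out also hold fewer libraries. With siNFYA in vehicle 3 of the 8 genes passed (1696 of all genes), 1 with DESeq2 (956), 0 on the TPM scale (439) and 1 to 2 when 1 library was left out (1065 to 1604, lowest without control vehicle replicate 2). With siNFYA in R1881 1 passed (751), 0 with DESeq2 (397), 2 with no filter, 0 on the TPM scale (201) and 0 to 1 with 1 library left out (402 to 674, lowest without control R1881 replicate 1). With siKLF5 in vehicle 0 passed (168), and 1 with each of DESeq2 (82), library totals, no filter (409) and only the groups compared (81); all genes gave 2 on the TPM scale, 108 with all 17 libraries in 1 fit and 70 to 434 with 1 left out, highest without siKLF5 vehicle replicate 2, which leaves that arm with 1 library, assumed to vary like the other groups. With siKLF5 in R1881 1 passed (176), 2 with no filter (388) and 0 on the TPM scale (34); all genes gave 105 with DESeq2, 314 with only the groups compared and 71 to 108 with any 1 of the 6 libraries left out. The interactions called 91 (siNFYA) and 2 (siKLF5) of all genes, 326 and 106 with no filter, 1 and 0 on the TPM scale, 59 and 1 in 1 fit of all 17, and 43 to 264 (highest without siNFYA R1881 replicate 1) and 1 to 51 (highest without siKLF5 vehicle replicate 3, again an arm of 1) with 1 left out. The changes of sign were all of values that did not pass. On the TPM scale they were INSR with R1881 under control siRNA (0.13), IGF1R and IRS1 with siNFYA in R1881 (0.0887 and 0.22), IGF1R and IRS1 with siKLF5 in vehicle (-0.66 and -0.0939), GRB10 with siKLF5 in R1881 (0.0249) and the interactions of IGF1R with siNFYA (0.53) and IGF2R with siKLF5 (0.11). With only the groups compared they were INSR (0.0024) and IGFBP2 (0.0187), and with library totals IGFBP2 (0.0036), all with siNFYA in R1881. With 1 library left out the values ran from -0.0785 to 0.0687 for INSR with R1881 under control siRNA; with siNFYA in vehicle from -0.0743 to 0.0106 for IGF1R and -0.0445 to 0.31 for IRS2; with siNFYA in R1881 from -0.15 to 0.0529 for INSR and -0.11 to 0.0691 for IGFBP2. With siKLF5 in vehicle they ran from -0.17 to 0.29 for IGF1R, -0.21 to 0.41 for IRS1, -0.41 to 0.19 for IRS2 and -0.0388 to 0.41 for IGFBP3. For the siNFYA interaction they ran from -0.0654 to 0.10 for IGF2R, -0.0415 to 0.16 for IGFBP2 and -0.31 to 0.01 for IGFBP3, and for the siKLF5 interaction from -0.18 to 0.28 for IGF1R, -0.62 to 0.0054 for IRS1 and -0.38 to 0.22 for IRS2. The difference in the INSR exon 11 share ran from 2.28 to 6.97 points with 1 library left out. No paired analysis was possible because the groups share no replicate number in the labels, where the numbers run on from group to group. At these depths 3 counts are 0.437 to 0.679 CPM, which limits IGFBP4, IGFBP5 and GRB14; this floor covers counting error only.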
